A study of Homo sapiens with 2 samples.

Results

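The genes of the mitochondrial respiratory chain were examined in a comparison of splicing between control HEK293T cells and HEK293T cells exposed to amiloride. Members were taken by symbol: every row of the 5 deposited splicing tables whose gene symbol starts with NDUF, UQCR, SDH followed by A to D or AF, COX followed by a digit, or ATP5. This gave 783 of 159490 events and 95 of 12254 gene symbols. In the table of skipped exons they account for 301 of 67154 distinct exons, in 93 genes, while UQCR10 and ATP5D appear in other tables alone.

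HEK293T is a human embryonic kidney line that carries the SV40 large T antigen, and amiloride is a potassium-sparing diuretic that blocks epithelial sodium channels. Polyadenylated RNA was sequenced from untreated cells (1 library) and from cells kept for 6 h in medium with amiloride at 300 µg/mL (1 library), both groups being the same line in the same type of medium. With 1 library per group there is no replicate check, so every difference given here compares those libraries and not the conditions. The tables give no expression levels, and the identity of the line was not checked against markers.

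The respiratory chain passes electrons from NADH and succinate to oxygen in the inner mitochondrial membrane. Complex I (NADH dehydrogenase, the NDUF genes), complex III (cytochrome bc1, the UQCR genes) and complex IV (cytochrome c oxidase, the COX genes) pump protons, complex II (succinate dehydrogenase, the SDH genes) feeds electrons in without pumping, and complex V (ATP synthase, the ATP5 genes) uses the gradient to make ATP. Core subunits hold the redox centres or the catalytic parts, supernumerary subunits surround them, and assembly factors build the complexes without staying in them. Kidney epithelium is rich in mitochondria, and the nuclear genes considered here are active in most cell types.

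The deposited tables come from rMATS, a program that weighs reads supporting inclusion of an RNA segment against reads supporting its absence. Each event carries a false discovery rate (FDR) and an inclusion level difference on a scale from -1 to 1. The tables number the libraries without saying which is the control, so a positive value means more inclusion in the first numbered library and cannot be assigned to amiloride. Hereafter an exon is "called" when any of its events has an FDR under 0.1 in the authors' deposited table, and it is described by its event of lowest FDR. An exon can be in several events that differ in the flanking exons, and their lowest and highest differences are given for some exons where they diverge.

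Of the 301 respiratory chain exons, 104 were called, or 34.6%, with a 95% Wilson interval from 29.4 to 40.1 that reflects counting error alone. Among all exons listed 35.8% were called, a value inside that interval. The differences of the called respiratory chain exons were smaller than those of the table as a whole. Their median was 0.059, against 0.108 over all called exons, and 39 of them, or 37.5%, reached 0.1 in either direction, against 55.3% of all called exons. As a share of all exons listed, called exons of that size made up 13% of the respiratory chain and 19.8% of the table. Inclusion was higher in the first numbered library for 97 of the 104 called exons (93.3%, interval 86.8 to 96.7), beside 95.7% of all called exons. Positive calls made up 34.2% of all exons listed. The 197 exons that were not called had a median difference of 0.002 in size, and 14 of them reached 0.1. Over all 43146 uncalled exons the median size was 0.015, and 6135 reached 0.1, so uncalled respiratory chain exons also differed less. The largest of the 14 was exon 14 of SDHAP1 at 0.506, with an FDR of 0.719. Just inside the threshold lay NDUFAF6 exon 8, with an FDR of 0.0935 and a difference of 0.048, and just outside it UQCRC2 exon 4, with an FDR of 0.1002 and a difference of 0.011.

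**Figure D1:**
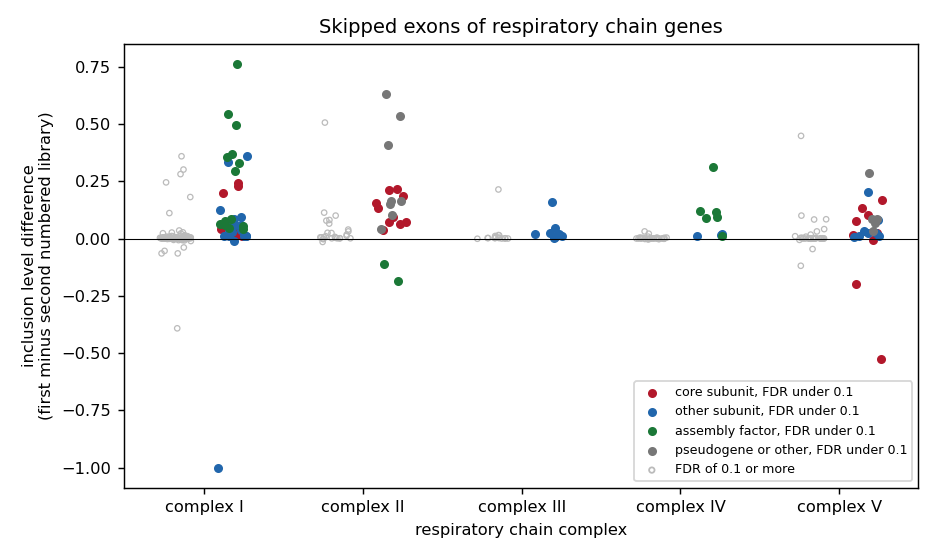
Each point is 1 skipped exon of a respiratory chain gene, placed by complex (x axis) and by its inclusion level difference, first minus second numbered library (y axis, no unit). Open grey points have an FDR of 0.1 or more, and filled points, coloured by role, an FDR under 0.1. The called exons lie mostly above 0, the green assembly factors reach 0.761, and the lowest point is NDUFA10 exon 7 at -1.

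By complex, 45 of 137 exons were called in complex I (32.8%), 20 of 46 in complex II (43.5%), 8 of 24 in complex III (33.3%), 9 of 38 in complex IV (23.7%) and 22 of 56 in complex V (39.3%). The Wilson interval of each of these shares holds the 35.8% found over all exons. The median difference of the called exons was 0.056 in complex I, 0.142 in complex II, 0.019 in complex III, 0.088 in complex IV and 0.0325 in complex V. Complex II includes copies of SDHA that make no enzyme, and without them 12 of 27 exons were called (44.4%) with a median of 0.0825. By role, 31 of 90 exons were called in core subunits (34.4%, median 0.062), 38 of 132 in supernumerary subunits (28.8%, median 0.0245) and 22 of 47 in assembly factors (46.8%, interval 33.3 to 60.8, median 0.09). The genes with none of these roles, among them the SDHA copies, antisense RNAs, read-through genes and ATP5SL, had 13 of 32 (40.6%, median 0.151). Called exons that differed by at least 0.1 numbered 13 in core subunits, 6 in supernumerary subunits, 12 in assembly factors and 8 in the rest. Core subunits came from complexes I, II and V alone. All 24 exons of complex III and 19 of complex IV were counted as supernumerary, so these roles also differ in their complexes. One gene, NDUFAF5, held 7 of the 22 assembly factor exons, and without it 15 of 38 were called (39.5%) with a median of 0.077. The symbol prefix does not always give the complex: NDUFA4 was counted with complex IV, where its protein belongs.

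**Figure D2:**
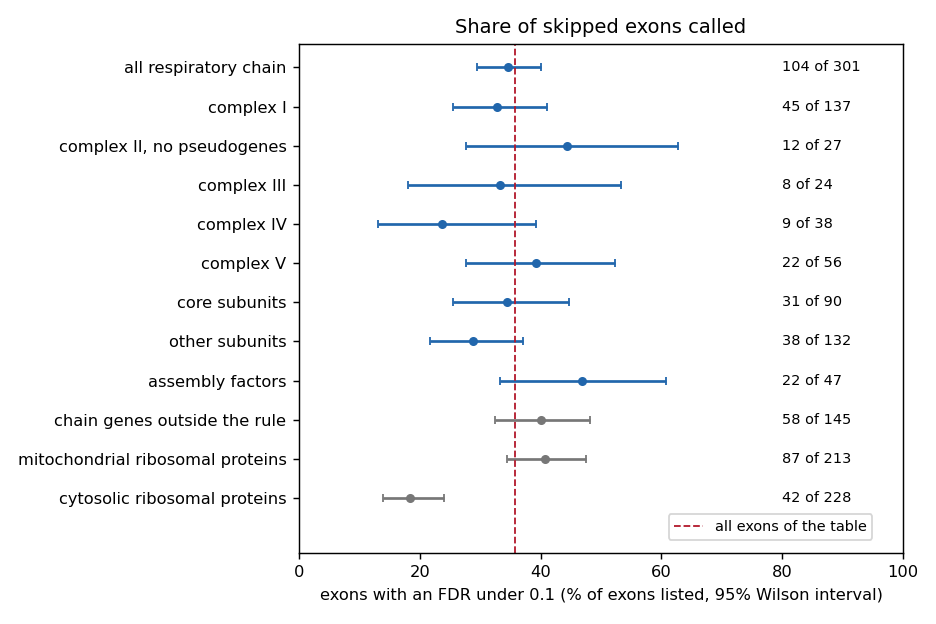
Points give the share of listed skipped exons with an FDR under 0.1 (x axis, %) for each group (y axis), with 95% Wilson intervals as bars and the counts at the right. The dashed line marks the 35.8% of all exons. Among the respiratory chain groups every interval crosses the line, and that of the cytosolic ribosomal proteins, at 18.4%, lies below it.

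In complex I the largest positive differences were those of NDUFAF5, an assembly factor that hydroxylates an arginine of the core subunit NDUFS7. Of its 9 listed exons, 7 were called and all had more inclusion in the first numbered library. Along the gene, exon 3 differed by 0.371, a 68-base exon by 0.543, exon 4 by 0.061, exon 5 by 0.294, exon 6 by 0.354, a 98-base exon by 0.761 and exon 9 by 0.497. The 68-base exon ends at the same 5' splice site as exon 4 and starts 20 bases upstream of it, so the 2 share reads. The exons not called were exon 2, at 0.026, and exon 7, at 0.004. For exon 5 all 3 events were called, with differences from 0.294 to 0.595, and for exon 9 both, at 0.497 and 0.663. Exon 3 had 5 events, 2 of them called, from 0.014 to 0.371 with a median of 0.02. Exon 6 had 3 events, 2 of them called, from 0.028 to 0.354 with a median of 0.05. The 98-base exon is not in the canonical transcript and gave opposite signs in its events: 0.761 between exons 8 and 10, and -0.084 between exons 8 and 9, which was not called. In a GENCODE transcript that is annotated as subject to nonsense-mediated decay, 23 coding bases of this exon are followed by a stop codon. The exon lies at chr20:13795064-13795161 on GRCh37 (plus strand) and exon 9 at chr20:13797109-13797192. They are shown because the 98-base exon had the largest positive difference of all respiratory chain exons and exon 9 stands next to it, both with an FDR listed as 0. In the first line the bases up to the stop are given, with the stop in capitals and 20 intron bases at the start. In the second line, as in the other exon sequences here, capitals mark the exon, between 20 bases of the upstream and 6 bases of the downstream intron.
NDUFAF5 98-base exon to its stop: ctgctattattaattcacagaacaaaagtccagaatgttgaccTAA
NDUFAF5 exon 9: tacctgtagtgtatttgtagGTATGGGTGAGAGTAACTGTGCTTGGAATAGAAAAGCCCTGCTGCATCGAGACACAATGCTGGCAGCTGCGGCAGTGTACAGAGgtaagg

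These exons were also set against each other as mutually exclusive exons, where a positive value means that the exon nearer the 5' end was favoured in the first numbered library. The 98-base exon against exon 9 gave -0.296, and exon 3 against exon 5 gave -0.209. Of the 7 called events, 5 were negative, and exon 3 was favoured over exon 7 by 0.141 and over the 68-base exon by 0.083. Thus within NDUFAF5 the exons did not differ by equal amounts. The exon bodies are counted in both tables, so these values are not independent of the skipped-exon calls.

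The other assembly factors of complex I differed less, apart from NDUFAF7, an arginine methyltransferase of mitochondria. NDUFAF7 exon 6, of 59 bases at chr2:37469778-37469836, differed by 0.329 with an FDR of 2.3e-15, and it was the only exon called of 7 listed. Skipping it would shift the reading frame, as for exons 3, 5 and 6 of NDUFAF5. Its 5' splice site scored 5.80 on the motif score used here, in which the log2 enrichment of each of 9 bases among annotated sites is added up. The mean over called exons of the table was 7.60 ± 2.86 (SD), and the uncalled exon 8 of NDUFAF7 scored lower, at 4.77.
NDUFAF7 exon 6: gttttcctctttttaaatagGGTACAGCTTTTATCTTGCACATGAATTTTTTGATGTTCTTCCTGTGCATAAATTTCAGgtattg
NDUFAF1, which acts on intermediates of the membrane arm, had both of its exons called at 0.04 and 0.056, NDUFAF2 had 1 of 2 at 0.077, and NDUFAF6 had 3 of 4 between 0.048 and 0.084. NDUFAF3 and NDUFAF4, whose proteins work as a pair, had 1 exon each listed, at 0.001 and 0, and neither was called.

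Among the 7 core subunits of complex I that are encoded in the nucleus, 12 of 44 exons were called, all with a positive sign. NDUFS1, the largest subunit, carries iron-sulphur clusters of the arm that oxidises NADH. It had 14 exons listed and 3 called, and 2 of these are neighbours near the 5' end. Exon 2, which holds the start codon, differed by 0.241 with an FDR of 4.1e-14 and exon 3 by 0.231 with an FDR listed as 0, while exon 17 differed by 0.034. The remaining 11 exons lay between -0.065 and 0.011. The value of exon 3 depended on its flanks, at 0.231 when exon 1 was the upstream exon and 0.079 when exon 2 was. Exon 2 was called in 1 of its 2 events, and the other gave 0.006. As mutually exclusive exons, exon 2 was favoured over exon 4 by 0.278 in the first numbered library. Exon 3 of NDUFS1 (chr2:207017143-207017234, minus strand) has a 5' score of 5.68 and a 3' score of 3.77, the latter over 23 bases. The uncalled exons 12, 13, 14 and 16 have lower 5' scores, from 4.17 to 5.49, and the called exon 17 has the lowest 3' score of the gene, -0.12.
NDUFS1 exon 3: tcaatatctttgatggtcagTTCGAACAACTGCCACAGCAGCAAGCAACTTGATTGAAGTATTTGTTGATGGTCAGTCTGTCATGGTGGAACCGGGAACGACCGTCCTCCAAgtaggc
NDUFS8, another iron-sulphur subunit, had 3 of 5 exons called, with exon 2 at 0.198 and the others at 0.042 and 0.041. Across its events exon 2 ran from 0.005 to 0.198, exon 3 from -0.003 to 0.042 and exon 5 from 0.002 to 0.041. NDUFV1, which binds NADH and flavin, had 2 of 5 called, at 0.034 and 0.042. NDUFV2, an iron-sulphur subunit beside it, had 2 of 5, both at 0.009. None of the 5 exons of NDUFS3 or the 4 of NDUFS7 was called. NDUFS7 exon 2 was listed at 0.245 with an FDR of 0.634, and NDUFV2 exon 4 at -0.392 with an FDR of 0.588.

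Of the supernumerary subunits of complex I, 19 of 63 exons were called, 17 of them positive. NDUFC1 exon 2, which lies in the 5' UTR, differed by 0.358 in 1 of 4 events, and the others reached down to -0.038. All 4 listed exons of NDUFB5 were called, with exon 3 at 0.334 and the rest at 0.06, 0.056 and 0.027. Exon 3 of NDUFB5 was called in 1 of 6 events, whose values ran from -0.031 to 0.334. NDUFA10 had both called exons on the negative side. Its exon 7 was listed at -1, the end of the scale, with an FDR of 0.0263, and at -0.884 in the second called event, whereas the highest of its 5 events was 0.002. Reads per library were not used, so the support behind these extremes is not known. As mutually exclusive exons, exon 7 of NDUFA10 was favoured over exon 9 by 0.047 (FDR 0.00465) in the first numbered library. NDUFA10 exon 2 differed by -0.011 as a skipped exon. The called exons of NDUFB6, at 0.124 and 0.084, of NDUFA12, at 0.093, and of NDUFA5, NDUFA11, NDUFAB1, NDUFB8, NDUFB10, NDUFS4 and NDUFV3, from 0.009 to 0.038, were all positive. No exon was called for NDUFA1, NDUFA2, NDUFA3, NDUFA6, NDUFA7, NDUFA8, NDUFA9, NDUFA13, NDUFB1, NDUFB2, NDUFB3, NDUFB4, NDUFB9, NDUFB11, NDUFC2, NDUFS5 and NDUFS6, most of which had 1 or 2 exons listed. The antisense RNAs NDUFA6-AS1 and NDUFV2-AS1 and the read-through gene NDUFC2-KCTD14 also had none, and reads of such genes may belong to the gene they overlap, since no source states that strand was used.

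**Figure D3:**
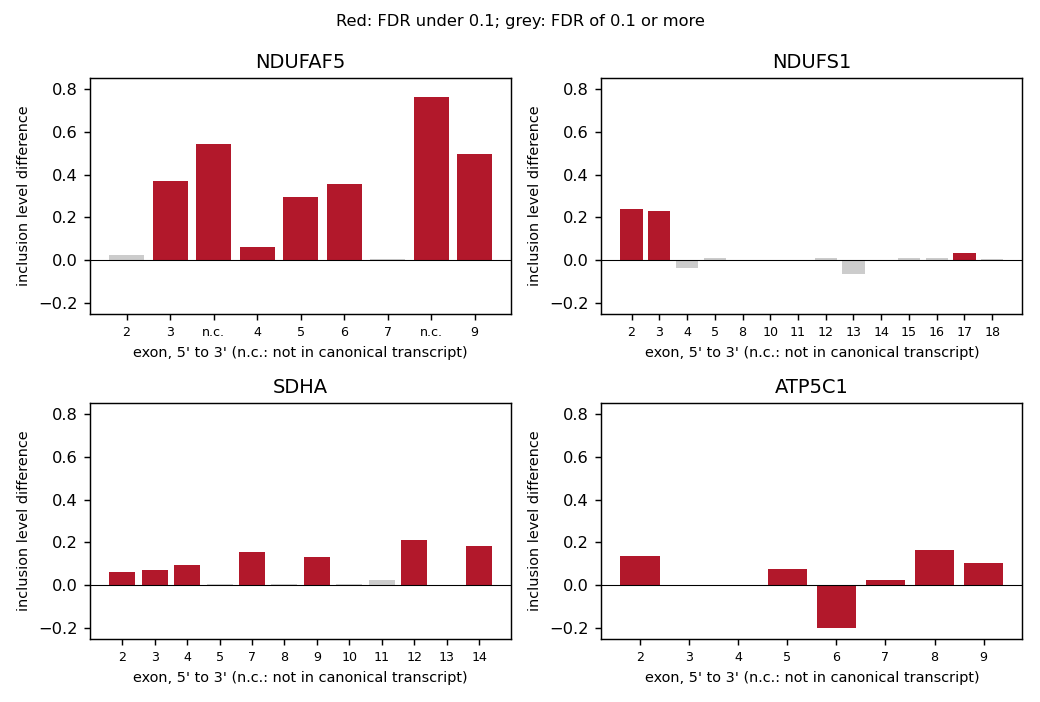
Bars give the inclusion level difference (y axis, no unit, first minus second numbered library) of each listed exon of NDUFAF5, NDUFS1, SDHA and ATP5C1, in order from the 5' end (x axis, number in the canonical transcript). Red bars have an FDR under 0.1. Called exons are spread along NDUFAF5 and SDHA, in NDUFS1 are exons 2 and 3 at the 5' end and exon 17, and include a negative one, exon 6, in ATP5C1.

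In complex II, SDHA, the flavoprotein that oxidises succinate, had 7 of 12 exons called, all positive. The differences were 0.062 for exon 2, 0.071 for exon 3, 0.094 for exon 4, 0.153 for exon 7, 0.133 for exon 9, 0.212 for exon 12 and 0.184 for exon 14. Between them, the 5 exons that were not called lay from 0.001 to 0.024, so that called and uncalled exons were interspersed along the gene. Exons 3, 4 and 14 had 2 events each, at -0.002 and 0.071, 0.019 and 0.094, and 0.016 and 0.184. The called exons of SDHA had 3' scores from 4.20 to 12.10 and the uncalled ones from 8.70 to 14.14. Exons 4, 9, 12 and 14 scored below the lowest uncalled exon.

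SDHA has near-identical copies elsewhere in the genome, SDHAP1 and SDHAP2 on chromosome 3 and SDHAP3 on chromosome 5. Listed exons of equal length were 93.9% to 97.4% identical between SDHA and SDHAP1 or SDHAP2, and reads of one may have been counted for another. Exon 12 of SDHA (chr5:251107-251218, plus strand) and its counterparts in SDHAP1 (chr3:195694750-195694861, minus strand) and SDHAP2 (chr3:195408061-195408172, plus strand) are shown because all were called with differences that were far apart, at 0.212, 0.408 and 0.04. Each copy differs from SDHA at 5 of 112 exon bases, and the flanking intron bases shown are the same.
SDHA exon 12: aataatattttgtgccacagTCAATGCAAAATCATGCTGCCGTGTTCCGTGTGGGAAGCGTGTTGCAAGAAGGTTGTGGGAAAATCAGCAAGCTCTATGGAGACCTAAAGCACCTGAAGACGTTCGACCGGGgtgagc
SDHAP1 exon 13: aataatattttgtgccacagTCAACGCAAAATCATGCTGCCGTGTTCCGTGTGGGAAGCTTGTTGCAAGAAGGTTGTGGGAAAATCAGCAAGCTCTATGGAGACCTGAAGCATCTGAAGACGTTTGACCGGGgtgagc
SDHAP2 exon 12: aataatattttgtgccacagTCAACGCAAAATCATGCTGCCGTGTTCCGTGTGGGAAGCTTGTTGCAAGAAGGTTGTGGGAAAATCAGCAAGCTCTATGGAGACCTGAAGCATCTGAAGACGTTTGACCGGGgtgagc
For SDHAP1, 4 of 10 exons were called, from 0.162 to 0.631, and for SDHAP2 4 of 8, from 0.04 to 0.165. The single exon of SDHAP3 was not called. Exon 13 of SDHA, at 0.001, had counterparts at 0.506 in SDHAP1, not called, and 0.151 in SDHAP2, called with an FDR of 0.0759.

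SDHC, a membrane anchor of complex II, had 2 of 5 exons called, exon 2 at 0.214 and exon 3 at 0.07. SDHB, the iron-sulphur subunit, had exon 3 called at 0.035 of 5 listed, and none of the 3 exons of the other anchor, SDHD, was called. SDHAF2, which helps to attach the flavin to SDHA, went the other way. Both of its internal exons were negative, exon 2 at -0.11 with an FDR of 2.3e-07 and exon 3 at -0.185 with an FDR of 8.0e-09. Each of these values came from the event in which exon 1 is joined to exon 4, and in the second event of each exon, flanked by its neighbour, the difference was -0.003 and 0.003. The 2 called events therefore share the reads of 1 skipping junction. Exon 3 of SDHAF2 lies at chr11:61205476-61205585 on the plus strand and has a 5' score of 5.22.
SDHAF2 exon 3: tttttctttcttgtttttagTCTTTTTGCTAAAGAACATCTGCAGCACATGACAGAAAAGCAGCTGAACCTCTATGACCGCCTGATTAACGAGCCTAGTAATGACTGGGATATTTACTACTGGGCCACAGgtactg
Negative calls of this kind were few, here and in the table as a whole. They numbered 7 of the 301 respiratory chain exons, beside 1032 of 67154 (1.54%) in the table. Among called exons 93.3% here and 95.7% in the table were positive, so negative calls were not rarer in the respiratory chain. The 7 negative exons belong to SDHAF2, NDUFA10, ATP5A1, ATP5B and ATP5C1.

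Complex III gave small differences with 1 exception. UQCRC2, a subunit on the matrix side, had 2 of 10 exons called, exon 3 at 0.16 and exon 5 at 0.012. Exon 6 of UQCRC2 was listed at 0.214 with an FDR of 1 and was not called. UQCRH, the hinge protein that binds cytochrome c1, had a difference of 0.044 at its exon 2, which has 27 bases and keeps the reading frame. UQCRC1 had 2 of 6 exons called, at 0.025 and 0.02, and UQCRB 2 of 3, at 0.018 and 0.003. UQCR11 and UQCRQ had 1 exon each and no call. The 2 exons of complex III with the largest called differences, UQCRC2 exon 3 (chr16:21968738-21968887) and UQCRH exon 2 (chr1:46774773-46774799), are both on the plus strand.
UQCRC2 exon 3: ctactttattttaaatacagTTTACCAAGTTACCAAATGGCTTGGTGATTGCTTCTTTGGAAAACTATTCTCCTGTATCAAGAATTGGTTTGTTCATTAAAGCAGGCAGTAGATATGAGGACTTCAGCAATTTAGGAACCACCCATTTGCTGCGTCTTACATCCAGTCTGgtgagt
UQCRH exon 2: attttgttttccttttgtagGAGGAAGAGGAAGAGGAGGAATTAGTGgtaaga

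In complex IV the called exons were split between subunits and assembly factors. Of the subunits, 3 of 19 exons were called, and they differed by at most 0.02: exons 2 and 3 of COX5A at 0.017 and 0.02 and exon 3 of COX7A2 at 0.009. Of the assembly factors, 6 of 19 were called, with a median of 0.104. The largest was exon 4 of COX10, which makes the heme O precursor of the heme A of the oxidase, at 0.311 with an FDR listed as 0. The remaining 3 exons of COX10 were not called and differed by at most 0.004 in size. COX16, COX18 and COX20 all act on the subunit COX2. COX16 differed by 0.118 at exon 2 and 0.01 at exon 3, COX20 by 0.092 at exon 2, and COX18 by 0.116 at exon 4 and 0.088 for a form of that exon which starts 3 bases downstream. COX10 exon 4 lies at chr17:14005435-14005559 on the plus strand, and skipping its 125 bases would shift the reading frame.
COX10 exon 4: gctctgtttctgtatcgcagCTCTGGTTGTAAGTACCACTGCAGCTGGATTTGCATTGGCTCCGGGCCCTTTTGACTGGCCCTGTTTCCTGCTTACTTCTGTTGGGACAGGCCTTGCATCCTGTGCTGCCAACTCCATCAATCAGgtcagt
No skipped exon was called for COX4I1, COX5B, COX6B1, COX6C, COX7B, COX7C and NDUFA4 among the subunits or for COX11, COX14, COX15 and COX19 among the assembly factors.

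In complex V, ATP5C1 had 6 of 8 exons called. It encodes the gamma subunit, the shaft that turns inside the catalytic head. Exon 2 differed by 0.134, exon 5 by 0.076, exon 6 by -0.199, exon 7 by 0.022, exon 8 by 0.166 and exon 9 by 0.103, while exons 3 and 4 lay at 0 and 0.003. Exon 6 had an FDR of 0.0763 and an uncalled second event at 0.014. Exon 9 of ATP5C1, which holds the stop codon of the canonical transcript, is known to be included or skipped by tissue. Its 37 bases were called in 3 of 4 events, at 0.103 between exons 8 and 10, 0.114 between exons 6 and 10 and 0.466 between exons 7 and 10. As mutually exclusive exons, exon 6 against exon 9 gave -0.262 and exon 8 against exon 9 gave -0.192. Exon 5 ends at a GC rather than a GT. The scores were built from GT sites alone, so its 5' score of -7.94 cannot be compared with those of GT sites. Exons 5 (chr10:7841735-7841878) and 6 (chr10:7841990-7842054) of ATP5C1 are neighbours on the plus strand with called differences of opposite sign.
ATP5C1 exon 5: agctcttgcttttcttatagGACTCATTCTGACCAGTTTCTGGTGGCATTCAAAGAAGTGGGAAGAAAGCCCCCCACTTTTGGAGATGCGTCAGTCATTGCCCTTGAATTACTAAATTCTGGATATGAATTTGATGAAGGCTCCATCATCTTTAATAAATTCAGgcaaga
ATP5C1 exon 6: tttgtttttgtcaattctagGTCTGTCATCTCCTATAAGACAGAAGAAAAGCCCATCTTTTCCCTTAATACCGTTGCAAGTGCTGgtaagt

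The catalytic subunits around that shaft had fewer calls. ATP5B (beta) had 2 of 7 exons called, exon 8 at 0.015 and exon 2 at -0.007. ATP5A1 (alpha) had 1 of 6, a 108-base exon outside the canonical transcript at -0.528 with an FDR of 0.0642, and its other event was listed at 0.005. In the stalk that holds the head still, exon 2 of ATP5O differed by 0.205 in 1 of 4 events, the lowest being 0.001, and 2 further exons by 0.011. Exon 2 of ATP5O lies at chr21:35286754-35286804 on the minus strand and keeps the reading frame.
ATP5O exon 2: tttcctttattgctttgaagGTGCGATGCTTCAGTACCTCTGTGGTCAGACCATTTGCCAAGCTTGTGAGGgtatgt
ATP5F1, subunit b of the same stalk, differed by 0.031 at exon 2 and 0.026 at exon 3. ATP5SL differed by 0.285 at exon 3 and 0.067 at exon 5. In spite of its symbol it is known as DMAC2, a factor in the assembly of the membrane arm of complex I, but it was counted here with complex V and outside the assembly factors. All 3 exons of the read-through gene ATP5J2-PTCD1 were called, from 0.034 to 0.087. ATP5H (0 of 3), ATP5G1, ATP5G3, ATP5I, ATP5J and ATP5S had no called exon, and single called exons differed by 0.081 in ATP5G2, 0.024 in ATP5J2 and 0.005 in ATP5L.

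At least 1 exon was called in 48 of the 93 genes with a listed exon, beside 8000 of 11945 genes in the table as a whole. These counts depend on the exons listed per gene, which were fewer here (301 in 93 genes, against 67154 in 11945). The 6 genes with the most called exons, NDUFAF5, SDHA, ATP5C1, NDUFB5, SDHAP1 and SDHAP2, held 32 of the 104, or 30.8%, and several of them are among the genes with the most exons listed. A call in any type of event was found for 59 of the 95 genes, and 11 of these had no called skipped exon. The same count over all 12254 gene symbols was not made, so 59 of 95 cannot be read as high or low.

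Mutually exclusive exons were called in 90 of 184 events, or 48.9% (interval 41.8 to 56.1), beside 39.3% of all such events. The interval treats events as separate, although events of 1 gene share exons and reads. By gene, 31 of 51 had a called event, beside 4917 of 7719 over all genes, so the higher share of events was not seen by gene. The counts by gene depend on the events listed per gene, which were fewer here (184 in 51 genes, against 39869 in 7719). The differences were small here too, with a median size of 0.035 against 0.079 over all called events. Those of at least 0.1 made up 8.15% of the listed events, and 14.8% of all. A called skipped exon was part of 64 of the 90 called events (71.1%) and of 48 of the 94 uncalled ones (51.1%). Exon bodies are counted in both types of event, so such overlap is partly built in. The same count over all mutually exclusive events was not made. ATP5O had 10 of 11 events called, from -0.01 to 0.115, and NDUFS1 9 of 20. NDUFS3, without any called skipped exon, had all 6 events called, between -0.028 and 0.099. COX10 had 1 event, exon 3 against exon 4, at -0.114.

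Alternative 5' splice sites were called in 15 of 43 events (34.9%, interval 22.4 to 49.8), beside 28.2% of all, and a positive value here means more of the longer exon form in the first numbered library. ATP5J, a component of the stalk of complex V, accounts for 9 of them, and its uncalled events also weigh in the 43. Its events set 5 donor sites of its first exon against each other, and each donor was part of 8 listed events. By gene, 7 of 16 had a called alternative 5' splice site, beside 549 of 1476 over all genes. The share of events without ATP5J was not computed, so 34.9% beside 28.2% cannot be read as a higher share in these genes. The donor at position 27107626 of chromosome 21 was part of 7 called events and gave the lower form in the first numbered library in all 7. It has the lowest score of the 5, 4.41, and its differences ran from 0.032 to 0.091 in size. The 5 donors are shown from 5' to 3' on the minus strand, 3 exon and 6 intron bases each, with GT in capitals.
ATP5J donor at 27107798, score 8.89: cggGTaaga
ATP5J donor at 27107626, score 4.41: gagGTacaa
ATP5J donor at 27107300, score 7.67: ccgGTgagc
ATP5J donor at 27107250, score 6.29: cggGTaggc
ATP5J donor at 27107164, score 8.20: aagGTgact
All these events share exon bases and junctions and are not separate measurements.

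The largest differences among the other alternative 5' splice sites were 0.305 for ATP5A1 (FDR 0.0724), -0.301 for NDUFAF7 (FDR 0.00115) and -0.271 for UQCRB (FDR listed as 0). In ATP5A1 the shorter form ends at the 5' splice site of the skipped exon that differed by -0.528, so these values may share reads. The same pair of ATP5A1 sites joined to a different exon gave -0.007, which was not called. In NDUFAF7 the exon ends at position 37468780 or 154 bases downstream, at 37468934, on chromosome 2, and the longer form was the lower one in the first numbered library. Both forms are joined to exon 7 and leave out exon 6, which differed by 0.329 as a skipped exon. The 2 values may therefore share reads and are not separate measurements. The remaining called events differed by less than 0.1: COX14, an assembly factor of complex IV, by -0.076, ATP5SL by 0.04 and COX7A2 by -0.008. Both NDUFAF7 sites are annotated and close in score, at 10.1 and 9.45.
NDUFAF7 short form: gagGTaagc
NDUFAF7 long form: aagGTaatt

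Alternative 3' splice sites were called in 4 of 16 events (25%, beside 23.0% of all). In 2 of them, COX11, which delivers copper to the oxidase, favoured a form lengthened by 1603 or 1589 bases in the first numbered library, by 0.273 and 0.122. The windows below hold 20 intron and 3 exon bases, with AG in capitals, for the site at 53040276 on chromosome 17 and the sites at 53038673 and 53038687 that compete with it. The longer form includes an added stretch on which body reads were counted.
COX11 long form, score 8.45: aatctttctataatttccAGtgc
COX11 short form at 53038673, score 7.38: tggtaggtattgtcttccAGgct
COX11 short form at 53038687, score 3.44: tggctttgacatgttggtAGgta
NDUFA2 differed by -0.031 and NDUFB9 by 0.008.

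Retained introns were called in 3 of 5 events (60.0%), beside 48.2% of all, and none of the 3 reached 0.1 in size, which 26.4% of all retained intron events did with a call. NDUFA2 differed by -0.032 with an FDR listed as 0, and ATP5D, the delta subunit of the shaft, by -0.04 with an FDR of 0.0357. ATP5G3 and NDUFB4 were not called. The introns called are short, with 120 bases in NDUFA2 and 296 in ATP5D. That of NDUFA2, at chr5:140026948-140027067 on the minus strand, is 75% G and C, and was the called intron of lowest FDR. Its first and last bases are in capitals.
NDUFA2 intron: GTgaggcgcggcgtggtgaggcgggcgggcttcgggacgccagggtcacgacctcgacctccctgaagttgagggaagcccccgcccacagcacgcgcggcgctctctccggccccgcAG

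Sequence features that played no part in the choice of the genes were compared between called and uncalled exons. The mean 5' score was 7.13 ± 3.84 (SD, 104 exons) in called and 7.81 ± 3.05 (197 exons) in uncalled respiratory chain exons, against 7.60 and 7.86 in the whole table. Donors with GC in place of GT were found in 3 called exons, of ATP5C1, NDUFAF6 and UQCRB, and in 3 uncalled ones, which is 2.88% and 1.52%, beside 1.10% and 0.865% in the table. GC donors score low by construction, since the scores were built from GT sites. With GT donors alone the mean 5' scores of the respiratory chain exons were 7.67 and 8.08, beside 7.80 and 8.02 in the table. The mean 3' score was 9.03 in called and 9.47 in uncalled exons, and 8.94 and 9.19 in the table. Called exons had a median length of 107.5 bases and uncalled ones 121, beside 102 and 123 over all exons. Exons whose loss keeps the reading frame were called in 33 of 100 cases (33.0%) and those whose loss shifts it in 45 of 127 (35.4%), beside 33.4% and 38.0% in the table. Differences of at least 0.1 were found in 7 of the 33 called exons that keep the frame (21.2%) and in 18 of the 45 that shift it (40%), while in the table these shares were 54.9% and 53.3%. Exons are not replicates and those of 1 gene share reads, so no test was made of these contrasts.

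The remaining genes of the pathway, 31 that the symbol rule leaves out, had 58 of 145 exons called (40%, interval 32.4 to 48.1) with a median difference of 0.053. Of the called exons 54 were positive. LRPPRC, which stabilises mitochondrial mRNAs, had 10 of 20 exons called, up to 0.214. Assembly factors make up most of this list, and the largest values were 0.5 in COA1, 0.446 in TMEM126B and 0.438 in CMC2, and CHCHD7 had 2 negative exons, at -0.141 and -0.132. Mitochondrial ribosomal protein genes, also nuclear genes for proteins of mitochondria, had 87 of 213 exons called (40.8%, interval 34.5 to 47.6) with a median of 0.047. Cytosolic ribosomal protein genes had 42 of 228 (18.4%, interval 13.9 to 24.0) with a median of 0.0225. A difference of at least 0.1 was reached by 32.2% of the called exons of mitochondrial ribosomal proteins and 14.3% of those of cytosolic ribosomal proteins, and by 37.5% of the called respiratory chain exons. Expression was not available for matching and read depth was not used for it, and their part in these shares was not tested.

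**Figure D4:**
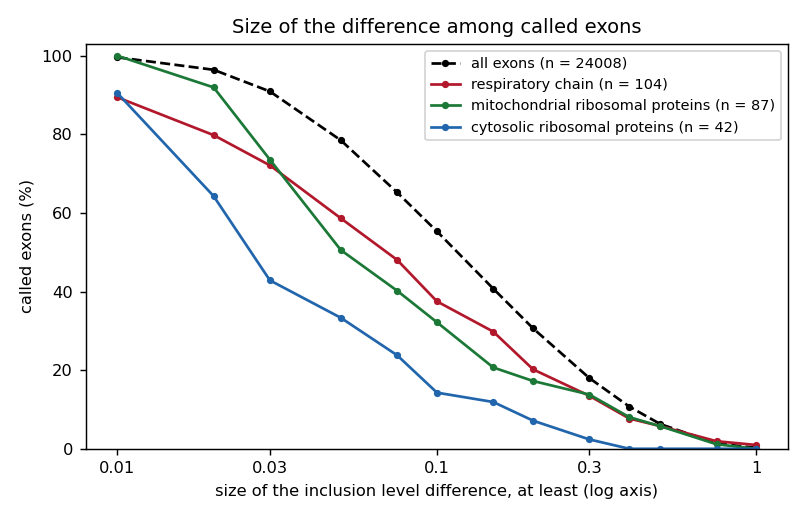
For each size of the inclusion level difference (x axis, log scale, no unit) the curve gives the percentage of called exons that differed by at least that much (y axis). At 0.1 the curves read 55.3% for all exons, 37.5% for the respiratory chain, 32.2% for mitochondrial and 14.3% for cytosolic ribosomal proteins.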

How the data were processed

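RNA-seq of polyadenylated RNA from 1 control and 1 amiloride library of HEK293T cells was used. Per the submitters' processing notes, STAR 2.5.1 and the genome build hg19 (GRCh37) were used, and the paper names rMATS for differential splicing. The rMATS version is not given in the sources used here. The authors deposited, for each event of 5 tables, a p-value with its FDR and an inclusion level difference (a score from -1 to 1, first minus second numbered library), and the effective lengths of both forms. These are the authors' own comparison of the libraries and were used as deposited, since no column is labelled with its condition. Columns with values of a single library, 30 in all, were left out, so depth is not given. Adjusting the deposited p-values by Benjamini-Hochberg gave the deposited FDR within 5.0e-13.

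Events were grouped into exons by chromosome, strand, start and end. Shares carry 95% Wilson intervals (counting error only). Exon numbers follow the canonical GENCODE 44 transcript (lifted to GRCh37), and sequences were read from the GRCh37 reference genome. Splice site scores add up, base by base, the log2 enrichment among annotated sites (300873 with GT over 9 bases, 300290 with AG over 23 bases, pseudocount 0.5) over equal frequencies. In the mutually exclusive table the inclusion form was the exon first in the transcript, which the form lengths bore out in all 39869 events. The exon grouping was tested on simulated data.

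The members, gene roles and lists were chosen with earlier results of these data known. Exons were named by rule: in each complex up to 5 called exons of largest size with an FDR under 0.01, 1 per gene, all called retained introns and alternative sites, the 5 largest mutually exclusive events, all negative called exons, and core subunits by their counts. Others were named after their values were seen, and 1 gene that the rule names is not reported here. Stricter thresholds, a minimum size, other choices of the event, and leaving out groups of exons were tried as alternatives. Python 3.11.15, numpy 2.4.6, pandas 2.3.3 and scipy 1.17.1 were used.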

Additional observations from a re-analysis of the deposited data

How the results depend on the processing

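The share of respiratory chain exons called, 34.6%, became 32.6% at an FDR under 0.05, 33.8% with subunits and assembly factors alone, 34.7% with both splice sites annotated and, chosen after seeing the data, 33.2% without NDUFAF5. It moved beyond its interval to 28.6% at an FDR under 0.01, 13% with a difference of at least 0.1, 24.3% when the event of lowest identifier decided, and 25.9% for exons in exactly 1 event. The whole table gave 26.9%, 19.8%, 27.3% and 25.3% under the same 4 settings. These shifts follow from stricter thresholds or fewer events per exon. By event, an FDR under 0.01 left 20.6% of skipped-exon, 33.7% of mutually exclusive and 20% of retained intron events, and a difference of at least 0.1 left 9.53%, 8.15% and 0.0% of these and 6.98% of alternative 5' splice site events. The median difference of called exons ranged from 0.04 to 0.0645 and the positive share from 91.3% to 96.5%. No paired analysis was possible because each group has 1 library and the columns carry no replicate numbers. Depth, which was not examined here, limits the calls: an exon with few reads can go uncalled whether or not its inclusion differed.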
